A study of Mus musculus with 18 samples.

Results

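The comparison described here is the effect of the TLR4-K810R mutation on the size of the response to LPS in mouse peritoneal macrophages. For each gene, the change after LPS in TLR4-K810R cells was set against the change after LPS in TLR4-WT cells, so a positive difference means a larger rise, or a smaller fall, in the mutant. It rests on 12 of the 18 libraries of the series, 3 in each of 4 groups: TLR4-WT mock, TLR4-WT LPS, TLR4-K810R mock and TLR4-K810R LPS. The mice were C57BL/6 animals, wild type or carrying a CRISPR/Cas9 knock-in that replaces lysine 810 of TLR4 with arginine, and their macrophages were drawn to the peritoneum with thioglycolate medium. The LPS groups received 100 ng/ml LPS for 6 h, and the mock groups did not. The 6 libraries not in the comparison come from TLR4-K730R macrophages, which carry the same exchange at lysine 730 and entered the fit for the estimate of the spread. The labels do not say whether replicates came from separate mice, so p-values measure the spread between these libraries, which may be technical.

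TLR4 with its partner MD-2 is the receptor of macrophages for bacterial LPS. Its cytoplasmic TIR domain binds the adaptors Mal and MyD88, which lead to NF-κB and to cytokine genes such as Tnf and Il6, and the adaptors TRAM and TRIF, which lead to IRF3 and type I interferon. Secreted interferon then acts back on the macrophage and raises a wide set of interferon-stimulated genes. The question behind the mutant is whether a TIR lysine that can be acetylated alters the response to LPS.

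The exchanged codons are shown first, because they name the genotypes and both lie in the TIR domain. The coding sequence of Tlr4 in the GENCODE annotation of GRCm38 encodes 835 amino acids in 3 coding exons on the plus strand, and both codons lie in exon 3. Capitals mark the codon of the lysine that the mutant replaces.
Lysine 810, chr4:66841387-66841413: tggagaagacttAAAaatgccctattg
Lysine 730, chr4:66841147-66841173: cacaagagccggAAGgttattgtggta
The codon of lysine 810 spans chr4:66841399-66841401 and that of lysine 730 chr4:66841159-66841161. The deposited values hold no read sequence, so the codon itself was not checked in the libraries. Tlr4 RNA in mock-treated cells stood at 11.6, 14.2 and 9.33 FPKM in TLR4-WT and at 11.9, 11.7 and 13.9 FPKM in TLR4-K810R. After LPS it stood at 5.72, 4.76 and 5.01 FPKM in TLR4-WT and at 4.18, 4.74 and 5.28 FPKM in TLR4-K810R. The receptor's RNA thus fell after LPS in both genotypes, and the difference of responses was -0.20 on the log2 scale with a 95% interval from -0.64 to 0.23 (limma, adjusted p = 0.713). Levels are FPKM, the length-scaled and depth-scaled fragment values that the authors deposited, and responses are differences of log2(FPKM + 1).

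The libraries hold 80071 to 90401 rows of transcript events, and their depth in reads is unknown. Of the macrophage markers, Lyz2, Csf1r, Cd68, Adgre1, Spi1, Fcgr1 and Mertk were present in every group, and Cd14 is listed at 0 in 11 of the 12 libraries. Summed macrophage markers ranged from 13642 to 14976 FPKM in TLR4-WT mock, from 7524 to 9669 in TLR4-WT LPS, from 11765 to 14137 in TLR4-K810R mock and from 9303 to 10266 in TLR4-K810R LPS. Of the 11 markers of T cells and NK cells, 7 have a value. These summed to at most 0.958 FPKM in any of the 12 libraries, and none was high enough to be tested. Library 3 of TLR4-K810R mock stood apart from its group, with the most genes at 1 FPKM or above, 9523, and the lowest mean correlation with its own group, 0.961. Without it, 831 genes rose and 1506 fell after LPS in TLR4-K810R, against 881 and 1916 with it, and the mock levels of the genotypes differed for 58 genes, against 153. The difference of responses then passed for 9 genes, 8 larger and 1 smaller, and for 33 at an adjusted p below 0.05. Library 3 of TLR4-WT LPS had the next lowest mean correlation with its own group, 0.964. In the fit with library weights it had the lowest weight, 0.427, against 0.564 for library 3 of TLR4-K810R mock.

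LPS altered a large share of genes in both genotypes. At an adjusted p below 0.01, 1012 genes rose and 2316 fell in TLR4-WT, which is 10.4% and 23.9% of the 9707 genes tested. In TLR4-K810R, 881 genes rose and 1916 fell, or 9.08% and 19.7%. The split depends on the scaling, since with median-of-ratios factors the genes that rose made up 51.9% of the calls in TLR4-WT and 51.3% in TLR4-K810R, against 30.4% and 31.5% without. The median change of all genes moved with it, from -0.28 to -0.02 in TLR4-WT and from -0.26 to -0.04 in TLR4-K810R. Across genes, which are not independent replicates, the responses of the 2 genotypes had a Pearson r of 0.858 and a Spearman rho of 0.746, and 80.7% of genes changed with the same sign.

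The strong responses were compared on genes chosen elsewhere. The 200 genes with the largest rise were chosen in TLR4-K730R, whose libraries are not part of the comparison. Their median rise was 3.16 in TLR4-WT and 3.18 in TLR4-K810R, and the median over genes of the difference was -0.06, with 97 genes above 0 and 103 below. The spread of the libraries' own medians over these genes was 0.135 (pooled SD). That SD describes single libraries and is not the standard error of the difference, so no test is read from it. The median difference was -0.12 with median-of-ratios scaling. With median centring it was -0.14 and with a pseudocount of 0.1 it was -0.18, both above that SD in size. For the 200 genes with the largest fall, the median was -2.27 in TLR4-WT and -2.10 in TLR4-K810R. Their median difference was 0.13, with a pooled SD of single libraries of 0.092, and 121 genes lay above 0 and 79 below. It was 0.10 with median-of-ratios scaling. With median centring and with a pseudocount of 0.1 it was 0.07, below that SD. The cause was not tested. Over all 9707 genes the median difference was 0.04. Scatter around the line of equal response can be seen in the plot of both responses, in which a small set of genes lies apart.

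**Figure D1:**
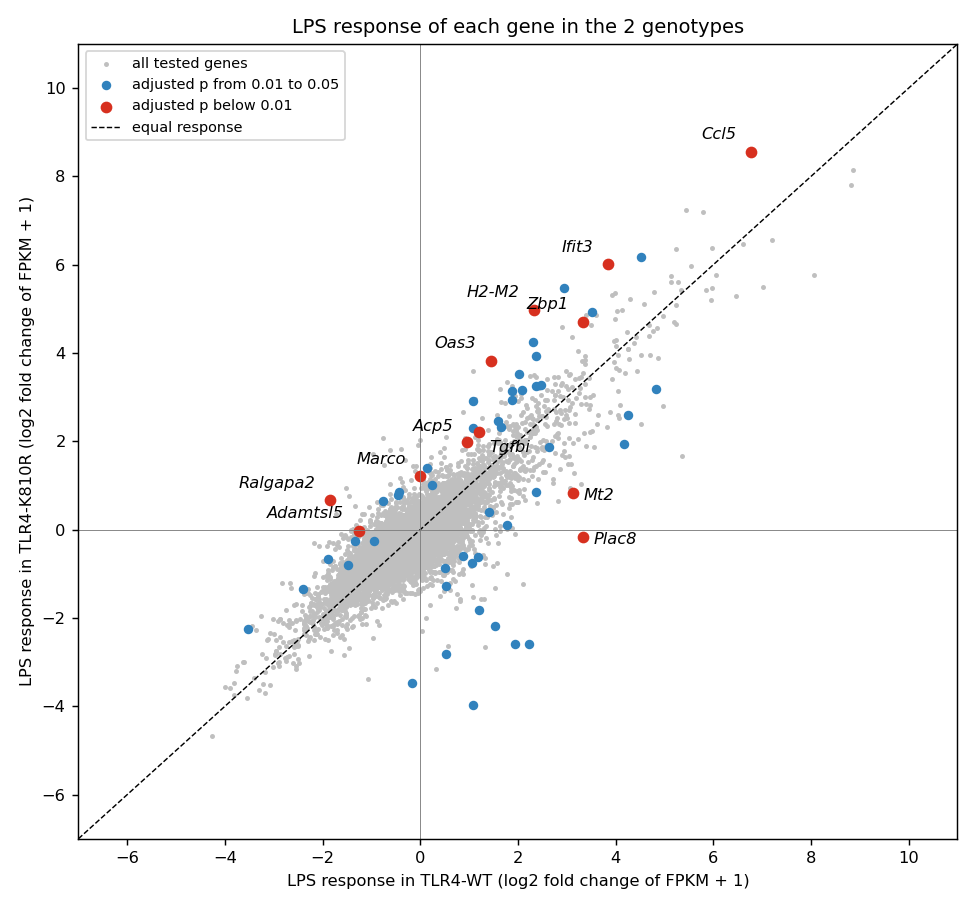
LPS response of each of the 9707 tested genes, as log2 fold change of FPKM + 1, in TLR4-WT (horizontal axis) and TLR4-K810R (vertical axis); the dashed line marks equal responses. The 12 named red points passed an adjusted p of 0.01, with H2-M2, Oas3 and Ifit3 above the line and Plac8 and Mt2 below it.

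The difference of responses passed the threshold for 12 of 9707 genes, 0.124%. Of these, 10 genes (0.103%) responded more strongly or fell less in TLR4-K810R, and 2 genes (0.0206%) responded less. The larger responses belonged to 3 interferon-stimulated genes, Ifit3, Oas3 and Zbp1, to the chemokine gene Ccl5, to the MHC class I gene H2-M2, and to Marco, Acp5, Tgfbi, Adamtsl5 and Ralgapa2. The smaller responses belonged to Plac8 and the metallothionein gene Mt2. A threshold of 0.05 took in 57 genes, 0.587%, of which 36 responded more and 21 less. This count moved from 19 without library 1 of TLR4-WT mock, and 25 without library 3 of it, to 114 without library 3 of TLR4-WT LPS. In every fit that left out 1 of the 18 libraries, 6 genes passed: H2-M2, Ifit3, Oas3, Zbp1, Ccl5 and Plac8. Larger omissions changed the calls: without replicate 1 of all groups 9 genes passed, 0 of them among the 12, and without replicate 2 of all groups 0 genes passed (limma), with 1025 at an unadjusted p below 0.05. Without replicate 3 of all groups 20 genes passed, 6 of them among the 12. In GRCm38 coordinates the genes with a larger response are H2-M2 at chr17:37480851-37483552, Ifit3 at chr19:34583531-34588731, Oas3 at chr5:120753098-120777661, Zbp1 at chr2:173206612-173218923, Ccl5 at chr11:83525778-83530518, Marco at chr1:120474538-120505024, Acp5 at chr9:22126727-22135711, Tgfbi at chr13:56609523-56639562, Adamtsl5 at chr10:80339110-80348412 and Ralgapa2 at chr2:146239879-146512344. Those with a smaller response are Plac8 at chr5:100553725-100572245 and Mt2 at chr8:94172664-94173568.

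**Figure D2:**
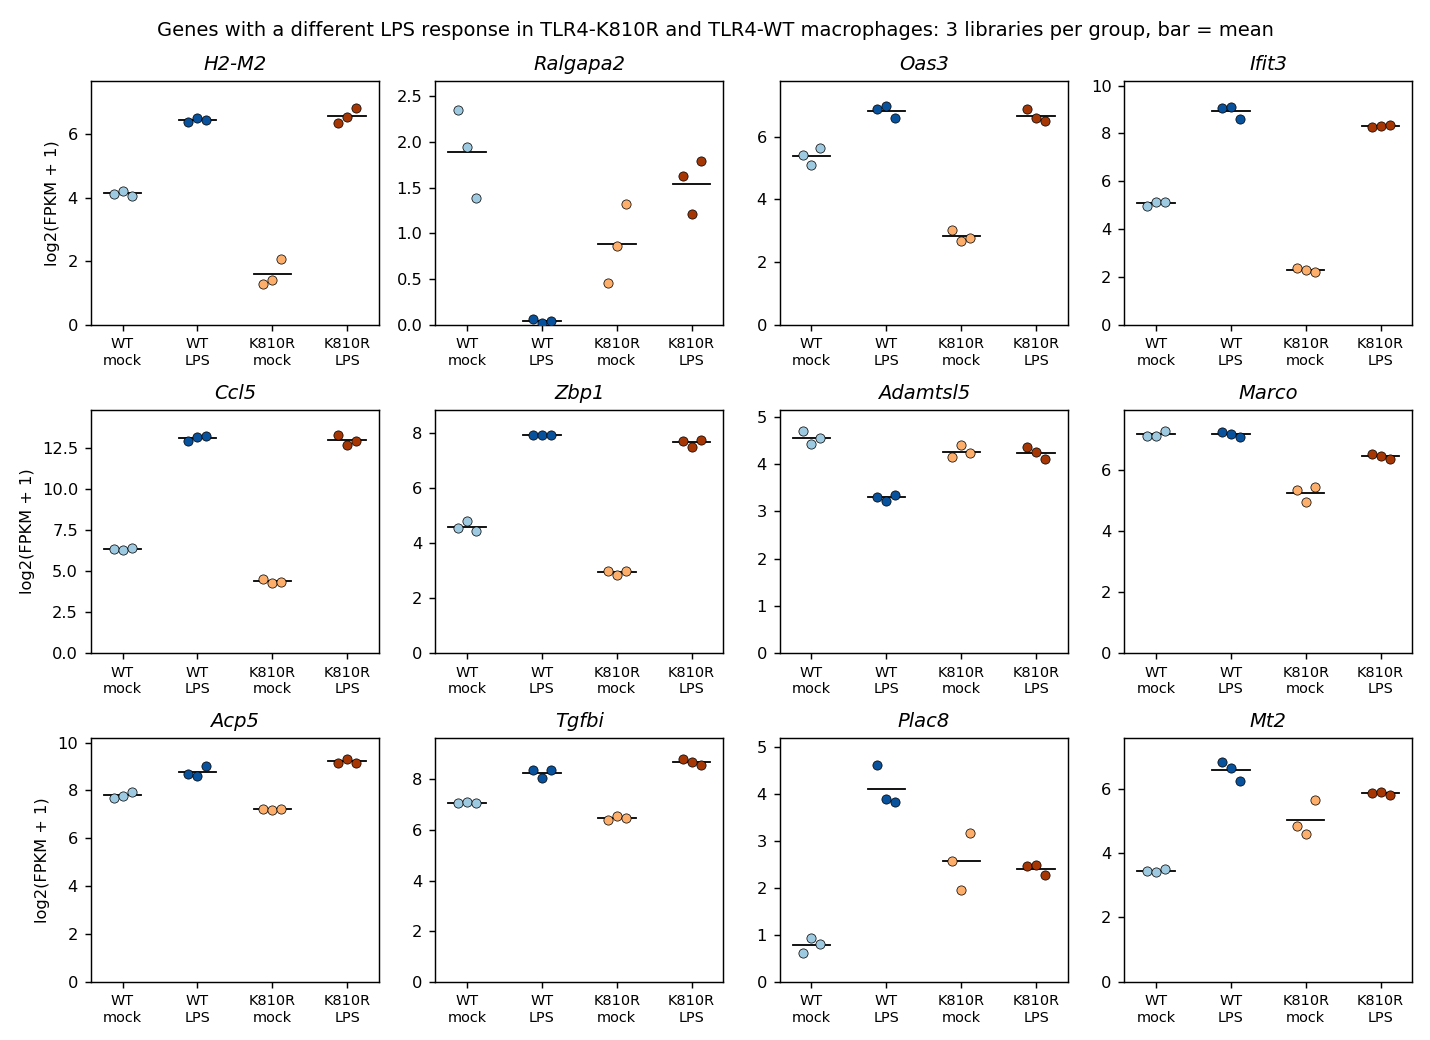
Level of the 12 called genes in each library, as log2(FPKM + 1) with the axis from 0, in the 4 groups of 3 libraries (points) with the group mean (bar). In H2-M2, Ifit3, Oas3, Zbp1 and Ccl5 the TLR4-K810R mock libraries lie lowest, and with LPS the genotypes overlap in H2-M2, Oas3 and Ccl5 but not in Ifit3 and Zbp1.

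The interferon-stimulated genes differed mainly before LPS. Ifit3, a member of the IFIT family that restrains viral RNA, stood at 29.96, 34.6 and 34.1 FPKM in TLR4-WT mock and at 4.17, 3.91 and 3.60 FPKM in TLR4-K810R mock. With LPS it reached 538, 545 and 386 FPKM in TLR4-WT and 307, 313 and 324 FPKM in TLR4-K810R. The mutant's mock libraries lay far below those of the wild type, and its LPS libraries also lay below, without overlap in either. Its log2 response was 3.84 ± 0.16 (SE) in TLR4-WT and 6.01 ± 0.16 in TLR4-K810R, a difference of 2.17 ± 0.23 (limma, adjusted p = 0.000231), and the genotypes differed by -2.79 in mock (adjusted p = 1.47e-07) and by -0.62 with LPS (adjusted p = 0.054).

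Oas3 encodes a synthetase of the oligoadenylates that activate RNase L. It stood at 41.2, 33.3 and 48.7 FPKM in TLR4-WT mock and at 7.19, 5.39 and 5.78 FPKM in TLR4-K810R mock. With LPS, 117, 125 and 95.2 FPKM in TLR4-WT overlapped with 118, 94.8 and 89.0 FPKM in TLR4-K810R. The difference of responses was 2.39 ± 0.25 (limma, adjusted p = 0.000231), while the LPS levels differed by -0.16 (adjusted p = 0.633). From the last exon alone it was 1.75 and did not pass (adjusted p = 0.0844).

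Zbp1, a sensor of Z-form nucleic acid that can start necroptosis, showed the same order. Its mock levels were 22.1, 26.7 and 20.7 FPKM in TLR4-WT and 6.88, 6.09 and 6.99 FPKM in TLR4-K810R, and its LPS levels were 243, 240.2 and 238 FPKM against 207, 178 and 214 FPKM. The mutant lay below the wild type in both states, by -1.66 in mock and by -0.27 with LPS, so its difference of responses was 1.39 ± 0.15 (limma, adjusted p = 0.000375). Leaving out any 1 library kept the differences of Ifit3, Oas3 and Zbp1 past the threshold, with adjusted p no higher than 0.00143, 0.00139 and 0.00238.

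The whole list of interferon-stimulated genes, with 36 of its 41 members tested, can be set beside all genes. The difference of responses lay above 0 in 30 members and below 0 in 6, with a median of 0.99 against 0.04 for all genes tested. At an unadjusted p below 0.05 the response was larger for 20 members and smaller for 0, beside 6.91% of all genes larger and 6.24% smaller. At an adjusted p below 0.05 there were 9 members, beside 0.587% of all genes, with Irf7, Bst2, Ifit1, Usp18, Dhx58 and Oas1a joining Ifit3, Oas3 and Zbp1. LPS raised 32 members in TLR4-WT and 35 in TLR4-K810R, beside 10.4% and 9.08% of all genes. In mock-treated cells the mutant was lower in 35 of the 36 members, with a median of -1.44, and the mock difference passed for 20 of them, beside 153 (1.58%) of all genes. Without library 3 of TLR4-K810R mock it was lower in 34, with a median of -1.48, and passed for 15, beside 58 of all genes. Markers of other macrophage states also moved with these groups: those of resident peritoneal macrophages summed to 183 to 215 FPKM in TLR4-WT mock and to 81.7 to 98.9 FPKM in TLR4-K810R mock. Cd5l carried that sum, and Gata6 of the same list was higher in the mutant, at 4.23 to 10.9 FPKM against 1.13 to 1.47 FPKM. Those of inflammatory monocytes summed to 301 to 333 FPKM and to 194 to 225 FPKM, a sum carried by Hp, while 4 of the 8 members were lower in the mutant and 4 were not. Their part in the mock differences, and that of the intestinal and mesothelial RNA described below, was not tested. With LPS the mutant was lower in 32 of the 36 interferon-stimulated members, with a median of -0.70, and no member passed, beside 13 (0.134%) of all genes. The list's median stayed between 0.82 and 1.15 when libraries were left out.

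Irf7, the transcription factor that amplifies interferon production, had the largest difference among the 6 members that passed 0.05 but not 0.01. Its mock levels were 139.7, 74.6 and 117 FPKM in TLR4-WT and 18.3, 14.3 and 13.02 FPKM in TLR4-K810R. LPS brought it to 889.8, 778 and 823 FPKM and to 649, 713 and 782 FPKM. The levels with LPS overlapped, the mock levels did not, and the difference of responses was 2.53 ± 0.50 (limma, adjusted p = 0.0343). Members in which the difference lay below 0 were Ifi44, Isg20, Slfn4, Isg15, Mx2 and Ifi205, at -0.98 to -0.06, none past the threshold. Isg15 is listed at 0 in all mock libraries of both genotypes and is the 1 member that was not lower in mock. An exact 0 in these tables can be a failed estimate, since Cd14, a macrophage gene, is also listed at 0, so responses from a listed 0, also those of Il6, Il10, Il12b and Nos2, are uncertain in size.

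Promoters of these genes were searched for the ISRE core, GAAA followed by any 2 bases and again GAAA, to which interferon-activated and IRF factors bind, in the 250 bases before the start on both strands. The RefSeq promoter table (GRCm38.p6) held 10 of the 12 called genes. A match was found in 3 of the 10 promoters of the genes with a larger response and in 0 of the 3 promoters of those with a smaller one, beside 2.98% of all 32851 promoters. At the looser threshold it was found in 7 of 28 promoters of genes with a larger response and in 0 of 27 with a smaller one. The windows below show the matches in capitals for Ifit3, Oas3 and Ifit1, written 5′ to 3′ on the strand of the gene, where a match on the other strand reads as its reverse complement.
Ifit3, chr19:34583358-34583431, plus strand: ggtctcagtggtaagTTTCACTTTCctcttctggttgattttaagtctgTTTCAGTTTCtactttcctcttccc
Oas3, chr5:120777710-120777749, minus strand: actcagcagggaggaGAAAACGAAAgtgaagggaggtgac
Ifit1, chr19:34640770-34640828, plus strand: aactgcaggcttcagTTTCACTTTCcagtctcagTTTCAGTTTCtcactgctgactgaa
Ifit3 has a pair of matches, which begin 156 and 122 bases before the start, Ifit1 a pair at 104 and 85, and Oas3 a match at 75. The other called gene with a match was Tgfbi. A match describes the letters of the window and is not evidence that a factor binds there.

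H2-M2 and Ccl5 followed the interferon-stimulated genes in their pattern of levels. H2-M2, a non-classical MHC class I gene, stood at 16.4, 17.7 and 15.7 FPKM in TLR4-WT mock and at 1.45, 1.65 and 3.25 FPKM in TLR4-K810R mock. With LPS, 83.1, 91.1 and 87.3 FPKM in TLR4-WT lay within the 81.1, 92.5 and 113 FPKM of TLR4-K810R. The mutant thus lay far lower in mock and the LPS groups overlapped, and the difference of responses, 2.66 ± 0.24, had the smallest p of all genes (limma, adjusted p = 0.000115) and was 1.72 with a pseudocount of 5. MHC genes share sequence, and whether the authors' counting split reads between near copies was not tested. Its promoter holds no ISRE core but has a pair of matches to the NF-κB motif, which 7.25% of all promoters hold, beginning 180 and 146 bases before the start and shown in capitals.
H2-M2, chr17:37483676-37483749, minus strand: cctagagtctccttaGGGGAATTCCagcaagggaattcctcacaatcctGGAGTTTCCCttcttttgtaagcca

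Ccl5 encodes RANTES, a chemokine that draws T cells and monocytes. Its mock levels were 80.2, 76.2 and 82.2 FPKM in TLR4-WT and 22.1, 18.5 and 19.2 FPKM in TLR4-K810R. LPS raised it to 7818, 9272 and 9345 FPKM in TLR4-WT and to 9915, 6498 and 7539.7 FPKM in TLR4-K810R. The LPS levels overlapped, the mock levels did not, and the responses of 6.77 and 8.56 on the log2 scale differed by 1.79 ± 0.21 (limma, adjusted p = 0.000612).

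Among the 20 tested genes of MHC class I presentation, the difference lay above 0 in 19, with a median of 0.30, and the mock level of the mutant was lower in all 20. H2-M2 and H2-T24, at 1.24 (limma, adjusted p = 0.0171), passed 0.05, beside 0.587% of all genes. Classical H2-D1, at 0.31, and H2-K1, at 0.40, did not pass. Of the 8 tested genes of MHC class II presentation, 4 lay above 0 and 4 below, with a median of -0.03.

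The remaining called genes with a larger response were Marco, Acp5, Tgfbi, Adamtsl5 and Ralgapa2, and no common function was tested. Marco, a scavenger receptor for bacteria, stood at 135, 136 and 152 FPKM in TLR4-WT mock and at 149, 141 and 133 FPKM with LPS. In TLR4-K810R it stood at 39.2, 29.6 and 42.3 FPKM in mock and at 89.9, 86.8 and 81.0 FPKM with LPS. Thus LPS raised Marco in the mutant, with no change detected in the wild type, and the mutant remained lower in both states, by -1.91 in mock (adjusted p = 4.08e-07) and by -0.71 with LPS (adjusted p = 0.0169). The difference of responses was 1.20 ± 0.18 (limma, adjusted p = 0.00764).

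Acp5, the tartrate-resistant acid phosphatase, and Tgfbi, a secreted matrix protein, crossed over between the states. Acp5 read 208, 218 and 243 FPKM in TLR4-WT mock against 149.8, 144 and 151 FPKM in TLR4-K810R mock, and with LPS 409, 391 and 513 FPKM against 569, 644 and 570.2 FPKM. Tgfbi read 132, 136 and 135 FPKM against 82.8, 92.2 and 89.0 FPKM in mock, and 334, 264 and 332 FPKM against 447, 412 and 377 FPKM with LPS. In both genes the mutant lay lower in mock and higher with LPS, without overlap. The differences of responses were 1.03 ± 0.16 for Acp5 and 1.02 ± 0.16 for Tgfbi (limma, adjusted p = 0.00764 each).

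Adamtsl5, a secreted protein related to the ADAMTS proteases, was the gene among the 12 whose levels with LPS differed between the genotypes past the threshold. In TLR4-WT it fell from 24.9, 20.3 and 22.5 FPKM to 8.91, 8.27 and 9.22 FPKM. In TLR4-K810R it read 16.7, 20.2 and 17.9 FPKM in mock and 19.5, 18.01 and 16.2 FPKM with LPS. The fall of the wild type had no counterpart past the threshold in the mutant, and the difference of responses was 1.24 ± 0.18 (limma, adjusted p = 0.00536). Ralgapa2, which encodes a subunit of the Ral GTPase-activating complex, read 4.10, 2.84 and 1.603 FPKM in TLR4-WT mock and 0.0413, 0.0151 and 0.0320 FPKM with LPS. Its levels in TLR4-K810R were 0.369, 0.822 and 1.49 FPKM in mock and 2.08, 1.31 and 2.46 FPKM with LPS. These are low levels, and the difference of 2.51 ± 0.38 (limma, adjusted p = 0.00764) was 0.87 with a pseudocount of 5 and 5.59 with one of 0.1.

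These 5 genes and Mt2 rested on the full set of libraries. Of the 18 fits that left out a library, Adamtsl5 passed in 8, Ralgapa2 in 4, and Marco, Acp5, Tgfbi and Mt2 in 3 each, with adjusted p up to 0.0299 in the others. Every one of these fits kept their direction. Without library 3 of TLR4-K810R mock, which stood apart, Marco and Ralgapa2 passed and Adamtsl5, Acp5, Tgfbi and Mt2 did not.

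Plac8 and Mt2 had the smaller response in TLR4-K810R. Plac8, a small cysteine-rich protein found in monocytes and several epithelia, rose from 0.540, 0.897 and 0.736 FPKM to 23.5, 13.9 and 13.2 FPKM with LPS in TLR4-WT. In TLR4-K810R it read 4.998, 2.89 and 8.07 FPKM in mock and 4.53, 4.61 and 3.87 FPKM with LPS. The mutant was higher in mock, by 1.79 (adjusted p = 0.00381), and lower with LPS, by -1.70 (adjusted p = 0.0169), without overlap in either state. Its difference of responses was -3.49 ± 0.44 (limma, adjusted p = 0.00124), and -2.02 with a pseudocount of 5.

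Mt2 encodes metallothionein-2, which binds zinc and copper. In TLR4-WT it rose from 9.75, 9.62 and 10.3 FPKM to 114, 98.7 and 74.4 FPKM. In TLR4-K810R it went from 27.4, 22.9 and 49.2 FPKM to 57.4, 58.7 and 54.3 FPKM, a change of 0.83 that did not pass. The genotypes did not overlap in either state, and the difference of responses was -2.30 ± 0.36 (limma, adjusted p = 0.00962). The promoter of Mt2 carries 5 matches to TGCNCNC, the core of the metal response element that the zinc sensor MTF-1 binds. A match is common, present in 44.4% of all promoters, and the 5 matches are shown in capitals.
Mt2, chr8:94172380-94172589, plus strand: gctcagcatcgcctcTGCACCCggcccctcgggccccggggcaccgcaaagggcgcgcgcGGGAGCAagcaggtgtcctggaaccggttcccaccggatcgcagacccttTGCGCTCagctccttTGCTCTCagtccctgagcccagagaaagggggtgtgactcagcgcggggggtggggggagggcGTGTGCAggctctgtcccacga
Mt1, its neighbour, read 166, 138 and 185 FPKM in TLR4-WT mock, 152, 135 and 119.9 FPKM in TLR4-WT LPS, 244, 219.7 and 249.7 FPKM in TLR4-K810R mock and 112, 131 and 109 FPKM in TLR4-K810R LPS. The difference of -0.76 did not pass (limma, adjusted p = 0.112), and neither did any other of the 16 tested genes of metallothioneins and zinc transport, whose median was -0.13 with 6 above 0 and 10 below.

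RNA of other tissues moved with the groups and has to be read beside the smaller responses. The 15 intestinal epithelium markers, which include Fabp1, Reg3b and Epcam, summed to 2.51 to 3.04 FPKM in TLR4-WT mock, to 1.43, 16.6 and 23.6 FPKM in TLR4-WT LPS, to 76.2, 85.1 and 171 FPKM in TLR4-K810R mock and to 3.85, 5.39 and 30.7 FPKM in TLR4-K810R LPS. Of the 10 markers of mesothelium and fibroblasts, among them Col1a1 and Dcn, 9 have a value. These summed to 32.6 to 50.4 FPKM, 43.2 to 144 FPKM, 118 to 283 FPKM and 103 to 125 FPKM in the same order. Among these 4 groups the intestinal sum was highest in the mock libraries of TLR4-K810R. In TLR4-K730R it was 62.1 to 91.6 FPKM in mock and 64.4 to 72.5 FPKM with LPS. The mesothelial sum of library 3 of TLR4-K810R mock stood above all others, while libraries 1 and 2 of TLR4-K810R mock overlapped with TLR4-WT LPS. The lung epithelium markers, 6 of 7 with a value, stood apart in another group. Their sum was 1.25, 25.2 and 34.9 FPKM in TLR4-K810R LPS, whereas no library of the other groups in the comparison exceeded 3.94 FPKM. Sftpc, a surfactant gene, was above 0 only in libraries 2 and 3 of TLR4-K810R LPS. In a bulk sample, fewer cells of a type and less RNA per cell cannot be told apart.

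All 11 tested intestinal markers had a difference below 0, with a median of -2.85, and 4 of them passed 0.05, beside 0.587% of all genes. With a pseudocount of 0.1 that median was -6.31, so its size depends on the pseudocount. Reg3b, an intestinal antimicrobial lectin, was listed at 0, 0.0761 and 0 FPKM in TLR4-WT mock, 0.0928, 1.40 and 2.89 FPKM in TLR4-WT LPS, 32.4, 29.5 and 45.7 FPKM in TLR4-K810R mock and 9.26, 0.194 and 0 FPKM in TLR4-K810R LPS. The apolipoprotein genes Apoa1 and Apoa4, the fatty acid binding protein gene Fabp1, Lypd8, Guca2b and Muc3, which gut epithelium also uses, were among the 21 genes with a smaller response at 0.05. The 7 tested mesothelial and fibroblast markers all lay below 0, with a median of -1.65, and none passed 0.05. Without each library in turn, or each replicate number, the 2 medians ranged from -4.01 to -1.80 and from -2.04 to -0.80. What part these tissues have in the smaller responses of Plac8 and Mt2 was not tested. In TLR4-K810R mock, Plac8, Mt2 and the intestinal sum were each highest in library 3. In TLR4-WT LPS, Plac8 and Mt2 were highest in library 1, where the intestinal sum was lowest. Plac8 is on the list of inflammatory monocyte markers, of which 3 of 8 tested lay above 0 and 5 below.

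**Figure D3:**
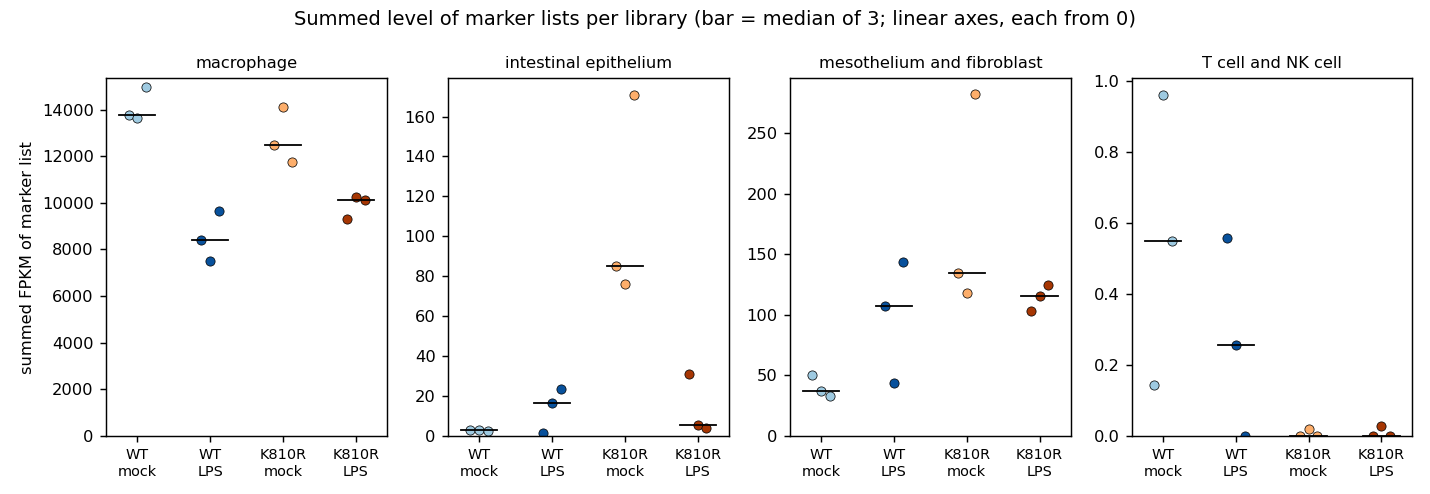
Summed FPKM of 4 marker lists in each library of the 4 groups (points; bar, median of 3), on linear axes from 0. Intestinal markers reach 76.2 to 171 FPKM in TLR4-K810R mock and 2.51 to 3.04 FPKM in TLR4-WT mock, while T cell and NK cell markers stay at or below 0.958 FPKM.

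The difference of responses can be split into its parts. Since the difference of responses is the LPS difference minus the mock difference, it can come from either. Among the 12 genes, the mock difference was the larger in 10 and passed the threshold in 10, while the LPS difference passed in 1, Adamtsl5. The mock groups did not overlap in any of the 12, and the LPS groups did not overlap in 9, beside 20.8% and 25.3% of all genes tested. The genes were picked for a large difference of responses, so nothing is read from these counts. Of the 57 genes at 0.05, the mock difference was the larger in 41 and passed in 35, and the LPS difference passed in 4, beside 1.58% and 0.134% of all genes. Without library 3 of TLR4-K810R mock, the mock difference was the larger in 7 of 9 genes and in 23 of 33. All 36 genes with a larger response were lower in TLR4-K810R mock than in TLR4-WT mock, and 15 of them were lower with LPS too. All 21 genes with a smaller response were higher in TLR4-K810R mock, and 19 of them were lower with LPS. These directions follow in part from how the difference is formed, and no test was made of them.

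**Figure D4:**
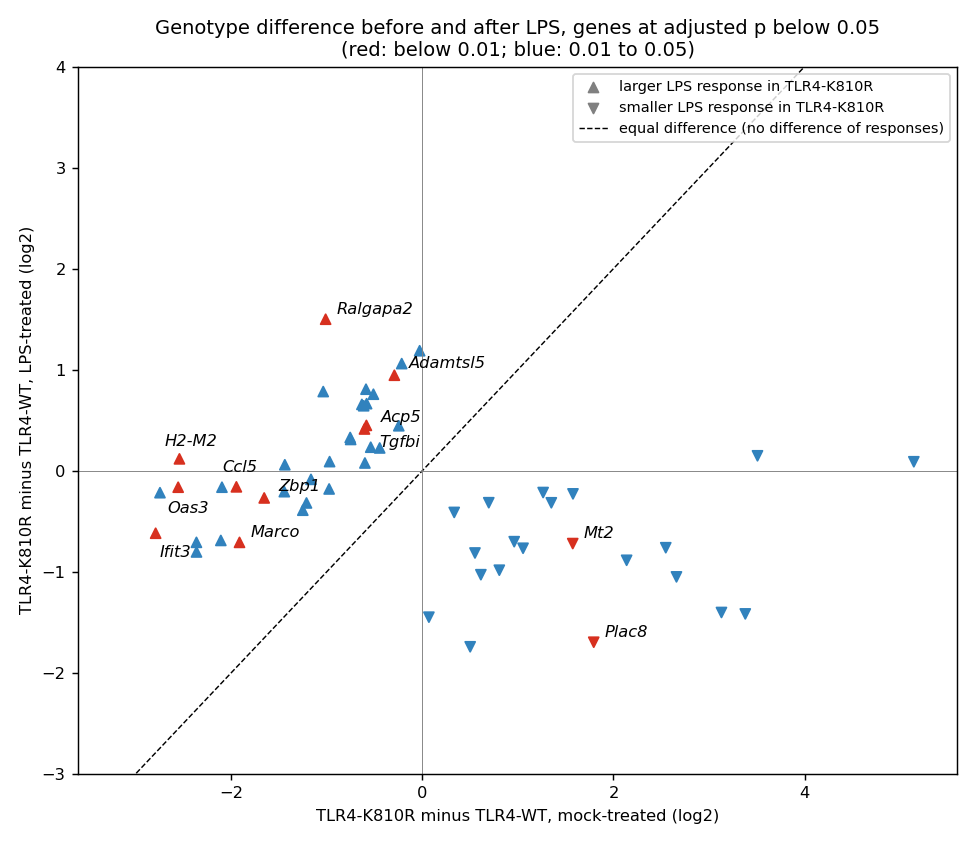
Difference between TLR4-K810R and TLR4-WT in log2(FPKM + 1), mock-treated (horizontal) and LPS-treated (vertical), for the 57 genes at an adjusted p below 0.05; the dashed line marks equal differences. The 36 genes with a larger response lie left of 0 on the mock axis and the 21 with a smaller response right of it.

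Cytokines, chemokines and effector enzymes are the main products of the LPS response. Tnf read 16.6, 14.2 and 14.7 FPKM in TLR4-WT mock and 227, 258 and 268 FPKM with LPS, and 11.8, 10.3 and 14 FPKM and 264, 217 and 276 FPKM in TLR4-K810R. Its levels with LPS overlapped, and the responses differed by 0.32 with an interval from -0.08 to 0.72 (limma, adjusted p = 0.495).

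Il6 was listed at 0, 0.265 and 0 FPKM in TLR4-WT mock and at 0 in all 3 TLR4-K810R mock libraries. After LPS it read 25.3, 16.0 and 48.3 FPKM in TLR4-WT and 15.4, 11.5 and 17.3 FPKM in TLR4-K810R. The groups overlapped, and the difference of responses was -0.74 with an interval from -1.99 to 0.51 (limma, adjusted p = 0.63). Il1b, the gene of interleukin-1 beta, went from 2.07, 2.06 and 3.34 FPKM to 1383, 1431 and 2026 FPKM in TLR4-WT and from 2.88, 3.52 and 3.99 FPKM to 1182, 985 and 1703 FPKM in TLR4-K810R. Its difference of -0.71 did not pass (interval -1.48 to 0.07, limma, adjusted p = 0.431). Il15 differed by 0.00 with an interval from -1.06 to 1.06 (limma, adjusted p = 0.999). Myd88, the adaptor, read 79.6, 87.7 and 84.5 FPKM in TLR4-WT LPS and 78.9, 78.3 and 78.7 FPKM in TLR4-K810R LPS, with a difference of responses of 0.01 (interval -0.27 to 0.29, limma, adjusted p = 0.978).

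Nos2, the inducible nitric oxide synthase, was listed at 0, 0 and 0.807 FPKM in TLR4-WT mock and at 0, 0 and 1.15 FPKM in TLR4-K810R mock. With LPS it read 406, 423 and 199 FPKM in TLR4-WT and 74.0, 78.0 and 58.7 FPKM in TLR4-K810R. All mutant LPS libraries lay below all wild-type ones, yet the difference of responses of -2.29 ± 0.61 did not pass (limma, adjusted p = 0.119). Of 21 fits that left out libraries, it passed in 1, without replicate 3 of all groups (limma, adjusted p = 0.00045). Adjusted p was up to 0.642 in the others. Cxcl10, a chemokine that interferon also induces, read 865, 907 and 450.4 FPKM in TLR4-WT LPS and 192, 192 and 208 FPKM in TLR4-K810R LPS, with mock levels of 4.23, 4.48 and 4.57 FPKM and 3.08, 2.38 and 5.19 FPKM. Again the LPS groups were apart, and the difference of -1.53 ± 0.57 did not pass (limma, adjusted p = 0.264). It passed in 1 of the 21 fits, without replicate 3 of all groups (limma, adjusted p = 0.00856), with adjusted p up to 0.744 in the others. Of the 13 tested genes of nitric oxide, itaconate and inflammatory enzymes, 9 lay above 0, with a median of 0.43. Ass1, which regenerates arginine from citrulline, had the larger response in the mutant, 1.93 (limma, adjusted p = 0.0163), from mock levels of 35.5, 37.1 and 19.0 FPKM in TLR4-WT and 6.499, 7.78 and 4.39 FPKM in TLR4-K810R.

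The interferon-gamma-type genes had a median below 0. Of 10 tested members of 21, 7 lay below 0 and 3 above, with a median of -0.71, and at an unadjusted p below 0.05 the response was smaller for 4 and larger for 0, beside 6.24% and 6.91% of all genes. Iigp1, an immunity-related GTPase, read 0.251, 0.162 and 0 FPKM in TLR4-WT mock and 0.575, 0.699 and 0.539 FPKM in TLR4-K810R mock. With LPS it reached 25.8, 17.7 and 16.2 FPKM in TLR4-WT and 3.86, 6.57 and 5.26 FPKM in TLR4-K810R. Its difference of -2.24 ± 0.36 passed 0.05 and narrowly missed 0.01 (limma, adjusted p = 0.0102). Gbp4, a guanylate-binding protein gene, read 38.6, 36.3 and 23.8 FPKM in TLR4-WT LPS and 7.49, 10.4 and 8.49 FPKM in TLR4-K810R LPS, and its level with LPS was lower in the mutant by -1.77 (limma, adjusted p = 0.00506). The list's median stayed between -0.95 and -0.44 when libraries were left out.

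Among 22 tested chemokine genes, 14 lay below 0 and 8 above, with a median of -0.34. Besides Ccl5, an unadjusted p below 0.05 was reached by Ccl9 with a larger response, beside 6.91% of all genes, and by 7 genes with a smaller one, beside 6.24%, namely Ccl7, Ccl2, Ccl8, Ccl4, Cxcl9, Cxcl10 and Cxcl11. Without replicate 3 of all groups the list's median was 0.03 and without replicate 2 it was -0.69, so its sign rested on the libraries used. The 19 tested cytokine genes had 16 below 0 and 3 above, with a median of -0.35 that stayed between -0.52 and -0.32. Il12b, the shared subunit of interleukin-12 and interleukin-23, was listed at 0 in all mock libraries of both genotypes and read 10.1, 13.2 and 10.7 FPKM in TLR4-WT LPS against 6.17, 3.74 and 3.21 FPKM in TLR4-K810R LPS. The LPS groups were apart, and its difference did not pass (limma, adjusted p = 0.0682). Of 15 other settings it passed in 2, the last-exon sum (limma, adjusted p = 0.0026) and the mean of both sums. Adjusted p was up to 0.416 in the others, and with libraries left out Il12b passed in 0 of 21 fits. Il10, which restrains inflammation, read 7.07, 8.24 and 2.80 FPKM against 1.93, 0.969 and 1.59 FPKM with LPS (limma, adjusted p = 0.14).

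NF-κB target genes had a median difference near that of all genes. Of 28 tested members, LPS raised 25 in each genotype, beside 10.4% of all genes in TLR4-WT and 9.08% in TLR4-K810R, 15 differences lay above 0 and 13 below, and the median of 0.05 turned to -0.02 with median-of-ratios scaling. Icam1, the adhesion molecule, passed 0.05 at 0.68 (limma, adjusted p = 0.0343), with 45.2, 42.1 and 47.5 FPKM in TLR4-WT mock, 31.3, 25.7 and 31.1 FPKM in TLR4-K810R mock and overlapping levels with LPS. The 23 tested genes of the TLR4 receptor and its signalling had 6 differences above 0 and 17 below, a median of -0.05, and none past 0.05. Lowest among them were Ly86 at -1.04 (MD-1, partner of the TLR4 relative Cd180), Ly96 at -0.97 (MD-2, which holds the LPS molecule) and the kinase gene Tbk1 at -0.85. Each had an unadjusted p below 0.05, beside 6.24% of all genes with a smaller response. Tbk1 was at 0.76 by the last-exon sum, so its direction is uncertain. The 9 tested acetyltransferases and deacetylases, among them Crebbp, Ep300 and Hdac6, lay between -0.36 and 0.59, and none passed. Feedback inhibitors, with 14 tested, had a median of -0.12 and 5 above 0.

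LPS lowered 12 of the 16 tested sterol synthesis genes in TLR4-WT and 7 in TLR4-K810R, beside 23.9% and 19.7% of all genes. Their median change with LPS was -1.14 in TLR4-WT and -0.54 in TLR4-K810R, and the difference lay above 0 in 15 of 16, with a median of 0.50 that stayed between 0.28 and 0.71. None passed 0.05, and 8 reached an unadjusted p below 0.05 with a larger value, beside 6.91% of all genes. Srebf2, the transcription factor of the pathway, read 48.9, 46.4 and 55.9 FPKM in TLR4-WT mock and 22.2, 20.6 and 30.1 FPKM with LPS, against 51.9, 48.4 and 47.9 FPKM and 40.5, 39.7 and 44.1 FPKM in TLR4-K810R. The mock groups overlapped and the LPS groups did not, and the difference of 0.79 ± 0.18 was just outside 0.05 (limma, adjusted p = 0.0585). In contrast with the interferon-stimulated genes, the mock difference of this list had a median of 0.25 and the LPS difference one of 0.73.

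The remaining lists gave few calls. Iron and haem handling had a median of 0.31 over 12 genes. Hp, the haemoglobin-binding haptoglobin gene, had a larger response in the mutant, 1.26 ± 0.20 (limma, adjusted p = 0.0109). Its mock levels were 254 to 294 FPKM in TLR4-WT and 164 to 197 FPKM in TLR4-K810R. With LPS they were 877, 869 and 1286 FPKM in TLR4-WT and 1632, 1567 and 1461 FPKM in TLR4-K810R. Medians were 0.01 for 9 immediate early factors, where Fos passed 0.05 at 0.67 (limma, adjusted p = 0.0462), 0.07 for 16 genes of glycolysis and the hypoxia response, 0.05 for 13 heat shock and stress genes, -0.14 for 8 genes of alternative activation and -0.35 for 16 cell cycle genes. Under median-of-ratios scaling those of the immediate early and the heat shock genes turned to -0.01 each. The cell cycle median went from -0.70 to 0.04 as libraries were left out. Leaving out libraries also turned the sign of the medians of alternative activation, MHC class II, NF-κB targets, metallothioneins, acetyltransferases and deacetylases, immediate early, heat shock and resident peritoneal macrophage genes, so no direction is read for these lists. Among marker lists, the median was 0.36 for 7 macrophage, -0.20 for 6 resident peritoneal macrophage, -0.47 for 8 inflammatory monocyte, 0.13 for 2 dendritic cell, 0.46 for 6 neutrophil, -0.36 for 3 mast cell, -0.65 for 3 B cell and -0.52 for 3 erythroid genes. With a pseudocount of 0.1 it was 0.10 for resident peritoneal macrophage, 1.28 for neutrophil, -1.19 for mast cell, -2.68 for B cell and -1.14 for erythroid genes. A single gene was tested for eosinophils, at -0.79, and for lung epithelium, Scgb1a1 at 2.84 from 1.25, 21.96 and 30.9 FPKM in TLR4-K810R LPS, and neither passed.

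**Figure D5:**
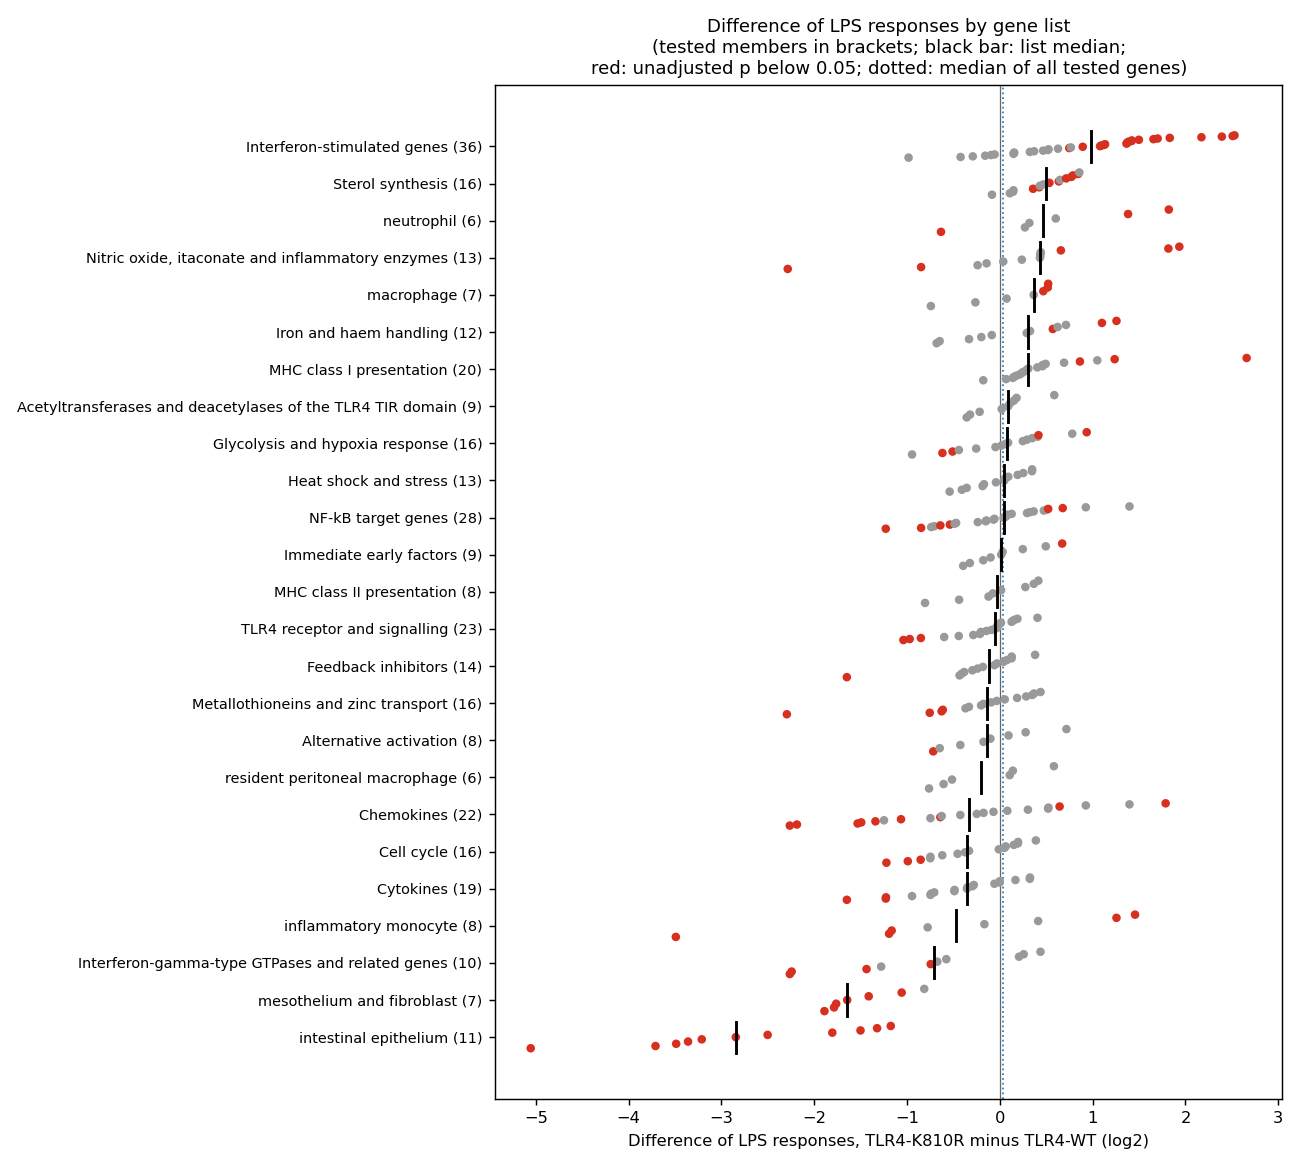
Difference of LPS responses (TLR4-K810R minus TLR4-WT, log2) of each tested member of the gene lists with at least 6 tested members; black bars are list medians, red points have an unadjusted p below 0.05, and the dotted line is the median of all genes, 0.04. Interferon-stimulated genes (median 0.99) lie at the right and intestinal epithelium markers (median -2.85) at the left.

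TLR4-K730R gives a second value for the same genes, though it shares the TLR4-WT libraries, so the 2 differences are not independent. Its own difference of responses from TLR4-WT was 1.78 for H2-M2, 1.99 for Ifit3, 2.11 for Oas3 and 1.65 for Zbp1, each past 0.01 (limma, adjusted p = 0.00535, 0.00103, 0.0012 and 0.00015). For Ccl5 it was 0.58, for Marco 0.43, for Acp5 0.26 and for Tgfbi -0.01, for Adamtsl5 0.59 and for Ralgapa2 2.002, and for Plac8 -2.39 and Mt2 -1.28, none past 0.01. The median of the interferon-stimulated list was 0.95 in TLR4-K730R and 0.99 in TLR4-K810R, and that of the sterol list -0.14 and 0.50. The responses of the 2 mutants, which share no library, were compared directly. Only 1 gene of 9707 (0.0103%) passed, Hp, whose response was larger in TLR4-K810R by 1.84 (limma, adjusted p = 0.00141). Its mock levels were 164 to 197 FPKM in TLR4-K810R and 408 to 453 FPKM in TLR4-K730R. With LPS they were 1461 to 1632 FPKM and 941 to 1174 FPKM. None of the 12 called genes passed. Tgfbi came nearest among those, at 1.03 (limma, adjusted p = 0.0382).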

How the data were processed

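RNA of 18 libraries of mouse peritoneal macrophages, 6 groups of 3, was sequenced on an Illumina instrument. The authors deposited a table of FPKM per transcript event for each library, with 20 event types. Reads per gene are not part of these tables, which leaves the depth unknown and allows no counting interval. Aligner, counter and annotation are not given in the sources used here. The submitters' processing notes name hg18, a human build, whereas the coordinates in the files match GRCm38, and 14051 of 14063 gene IDs were found in the GENCODE annotation of that build. FPKM was summed per gene over first-exon rows and over last-exon rows, and the higher sum was used. Of the first-exon and last-exon rows, those off the chromosome, strand or span of the gene they named were left out. They held 4.61 to 9.19% of the FPKM of the rows of these types that named a gene in a library. Rows that named no gene were also left out. Of 13598 genes, 9707 reached 1 FPKM in 3 or more libraries and were tested on log2(FPKM + 1), which understates changes of low genes.

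The main test was limma 3.58.1 in R 4.3.3 over all 18 libraries and 6 groups, with an intensity trend. P-values were adjusted by Benjamini-Hochberg over all 9707 genes, and a gene was called at an adjusted p below 0.01. Adjusted p in the text are 2-sided and from this fit, or from the same limma model on another exon sum or with libraries left out where the text says so. The code was tested on simulated data. Tables were made with Python 3.11.15, pandas 2.3.3 and numpy 2.4.6. The labels give the replicates numbers. Over 45 pairs of libraries with the same number, deviations from the group means correlated at -0.32 to 0.099, so the numbers were not taken to pair libraries. No 2 libraries held identical values.

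The members and gene lists were chosen with earlier results of these data known. Named were all called genes, the 10 with the largest difference in each direction at an adjusted p below 0.05, 8 genes of TLR4 signalling and its readouts, and up to 4 members of each list with the smallest unadjusted p. Other genes in the text were chosen after their values were seen. Alternatives varied the pseudocount, the filter, the scaling, the trend, library weights, the replicate block, the groups in the fit, the exon sum and the libraries. Motifs were searched on both strands in 250 bases before the start of RefSeq promoters.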

Additional observations from a re-analysis of the deposited data

Results flagged for a closer look

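The response to LPS differed between TLR4-K810R and TLR4-WT, by the test of the difference itself, in 12 genes. On the log2 scale the response was larger in TLR4-K810R by 2.66 for H2-M2, 2.51 for Ralgapa2, 2.39 for Oas3, 2.17 for Ifit3, 1.79 for Ccl5, 1.39 for Zbp1, 1.24 for Adamtsl5, 1.20 for Marco, 1.03 for Acp5 and 1.02 for Tgfbi. For Plac8 the difference was -3.49 and for Mt2 it was -2.30. Dixon's test for an outlying library was not applied to groups of 3.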

How the results depend on the processing

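None of the 12 called genes changed direction under an alternative that tested it. All 12 were tested except with the 5 FPKM filter (11), the first-exon sum (10), the last-exon sum (9) and the restriction by exon sums (7). The 12 called genes became 37 with array weights, 57 at an adjusted p below 0.05 and 6 with the replicate block, where H2-M2, Ifit3, Oas3, Zbp1, Ccl5 and Plac8 remained. Leaving out libraries moved the count between 0 and 23. It was 6 without TLR4-WT mock 1, TLR4-WT LPS 2, TLR4-K730R mock 2 or TLR4-K810R LPS 2, 7 without TLR4-K730R mock 1, TLR4-K810R mock 1 or TLR4-K810R LPS 3, and 23 without TLR4-K730R LPS 3. Without replicate 2 of all groups it was 0, with 1025 genes at an unadjusted p below 0.05 and 0 at an adjusted p below 0.05 (limma), and it was 20 once replicate 3 was dropped from every group. The cause was not tested. Other pseudocounts, filters, scalings, exon sums, the fit without a trend and the fit of 4 groups gave 8 to 16 calls. The last was 9 calls, of which 6 were among the 12. The restriction to 4534 genes whose exon sums lie within 1.1 times, median centring of lists and the mock counts without TLR4-K810R mock 3 were chosen after seeing the data. The restriction gave 15 calls. The median difference over the largest rises ranged from -0.07 to 0.05 without each of the 12 libraries in turn, and that over the largest falls from 0.10 to 0.17. With median centring, genes that rose made up 42.7% of the calls in TLR4-WT and 39.7% in TLR4-K810R. Unknown depth limits what can be said of genes near 0 FPKM.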
